A study of Homo sapiens with 39 samples.

Results

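The genes of the glutathione and thioredoxin systems described here are SLC7A11, GCLC, GCLM, GSR, TXN, TXNRD1 and SRXN1. NQO1, a quinone reductase, and PGD, which supplies NADPH, complete the set of 9. The 9 genes were chosen by name as redox genes linked to the transcription factor NRF2. Each symbol matched 1 of the 57773 Ensembl gene IDs in the count table. All 9 passed the filter on low counts that left 14460 genes for testing. RNA was sequenced from JJN3, an established human line of multiple myeloma, the tumour of antibody-secreting plasma cells, in 39 libraries, 3 for each of 13 groups. Cells were exposed for 1, 3, 6 or 24 h to GSK-J4, a cell-permeable inhibitor of the histone demethylases KDM6A and KDM6B, to the zinc salt ZnSO4, or to DMSO, the control, and 1 further group, T0, was taken at time zero. All 13 groups came from this 1 line grown in RPMI medium with fetal calf serum. No source used here gives the doses, and the protocol text names 3, 6 and 24 h but not 1 h. The labels do not say whether the 3 libraries of a group were separate cultures, so a p-value speaks of the spread between libraries alone, and that spread may be technical.

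Glutathione is a tripeptide of glutamate, cysteine and glycine that keeps the cytosol reduced and conjugates metals and electrophiles. Cystine enters the cell through SLC7A11, the ligase GCLC with its modifier GCLM makes the rate-limiting bond, and GSR returns oxidised glutathione to its thiol form. Thioredoxin (TXN) reduces protein disulfides and peroxiredoxins and is itself recharged by TXNRD1. SRXN1 repairs over-oxidised peroxiredoxins, NQO1 reduces quinones, and PGD, a dehydrogenase of the pentose phosphate pathway, yields the NADPH on which these reductases run. NRF2 (NFE2L2) binds antioxidant response elements near many of these genes and is held low by KEAP1 in unstressed cells, while SLC7A11 is also a known target of ATF4, the transcription factor of the amino acid response.

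Library totals ran from 4347745 to 10695671 counts, with a median of 6010529. Of 10 plasma cell markers, 9 were at 20.6 CPM (counts scaled to library size) or more in every library, and CD27 was at 0.679 CPM or less. IRF4 had the highest median of the 10, 806 CPM (467 to 1380 CPM), so it weighs most in their sum. Of the T cell markers CD3D reached at most 0.178 CPM and CD2, the highest, 1.29 CPM. Of the myeloid markers LYZ reached at most 0.219 CPM and ITGAM, the highest, 1.55 CPM. Among B cell markers MS4A1 lay between 1.25 and 6.01 CPM, and PAX5 reached 3.15 CPM. The summed level of 4 epithelial markers, most of it EPCAM, lay between 62.9 and 80.5 CPM in the 24 h groups and between 40.0 and 54.1 CPM in T0 and the earlier groups. Summed fibroblast markers spanned 6.16 to 69.7 CPM and varied within groups, for example 15 to 60.2 CPM in DMSO at 3 h. The summed plasma cell markers were lower in ZnSO4 than in DMSO at every time, with 2160 to 2180 CPM in ZnSO4 and 2500 to 2670 CPM in DMSO at 1 h, 1810 to 1940 and 2300 to 2330 CPM at 3 h, 1810 to 1930 and 2150 to 2450 CPM at 6 h, and 1950 to 2220 and 2480 to 2620 CPM at 24 h. In GSK-J4 they were lower than in those DMSO libraries at 1 h (2430 to 2470 CPM) and 24 h (2320 to 2440 CPM) and overlapped them at 3 h (2280 to 2400 CPM) and 6 h (2320 to 2420 CPM). The summed epithelial markers were lower in GSK-J4 than in DMSO at 6 h (40.3 to 41.8 CPM in GSK-J4, 44.5 to 50.6 CPM in DMSO) and at 24 h (62.9 to 69.5 CPM in GSK-J4, 69.8 to 77.0 CPM in DMSO), and the fibroblast sum was lower in ZnSO4 than in DMSO at 6 h (6.52 to 15.4 CPM in ZnSO4, 17.2 to 27.1 CPM in DMSO). The part of these markers in the results was not tested. Replicates differed most in T0, where the mean chi-square per gene between 2 libraries reached 6.849, against a lowest value of 1.2 among all replicate pairs, and no 2 replicates were identical.

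Per kilobase of exon sequence, TXN had by far the highest level at T0, 520 ± 10.4 CPM per kb (SD, n = 3). PGD followed with 65.6 ± 3.36, TXNRD1 with 47.0 ± 8.79 and NQO1 with 40.9 ± 0.181 CPM per kb. The glutathione genes were lower, with 22.9 ± 0.562 CPM per kb for GCLM, 16.6 ± 1.67 for GSR and 9.99 ± 0.254 for GCLC. The cystine carrier SLC7A11 and the repair enzyme SRXN1 were lowest, at 1.84 ± 0.178 and 1.53 ± 0.514 CPM per kb. TXN drew 157177 counts over the 39 libraries and TXNRD1 119997, whereas SRXN1 drew 1626 in all and between 13 and 122 in a library, which leaves its fold changes with the widest intervals of the 9. Counts for TXN and PGD may be shared with near-identical pseudogenes, 7 for TXN with 4042 counts and 1 for PGD with 411 counts. SLC7A11, with 9783 counts, overlaps the antisense gene SLC7A11-AS1, which had 124. SRXN1 shares 2292 of its 2698 exon bases with AL121758.1, a protein-coding gene on its own strand, which had 19. GCLC overlaps AL033397.2 on the opposite strand and AL033397.1 on its own, which had 110 counts together, and NQO1 overlaps AC092115.2 on the opposite strand, which had 0. Because the counting mode is not given in these sources, reads over such overlaps cannot be assigned with certainty. For SRXN1 that covers most of the gene, so its low level may reflect reads left uncounted there, which was not tested.

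**Figure D1:**
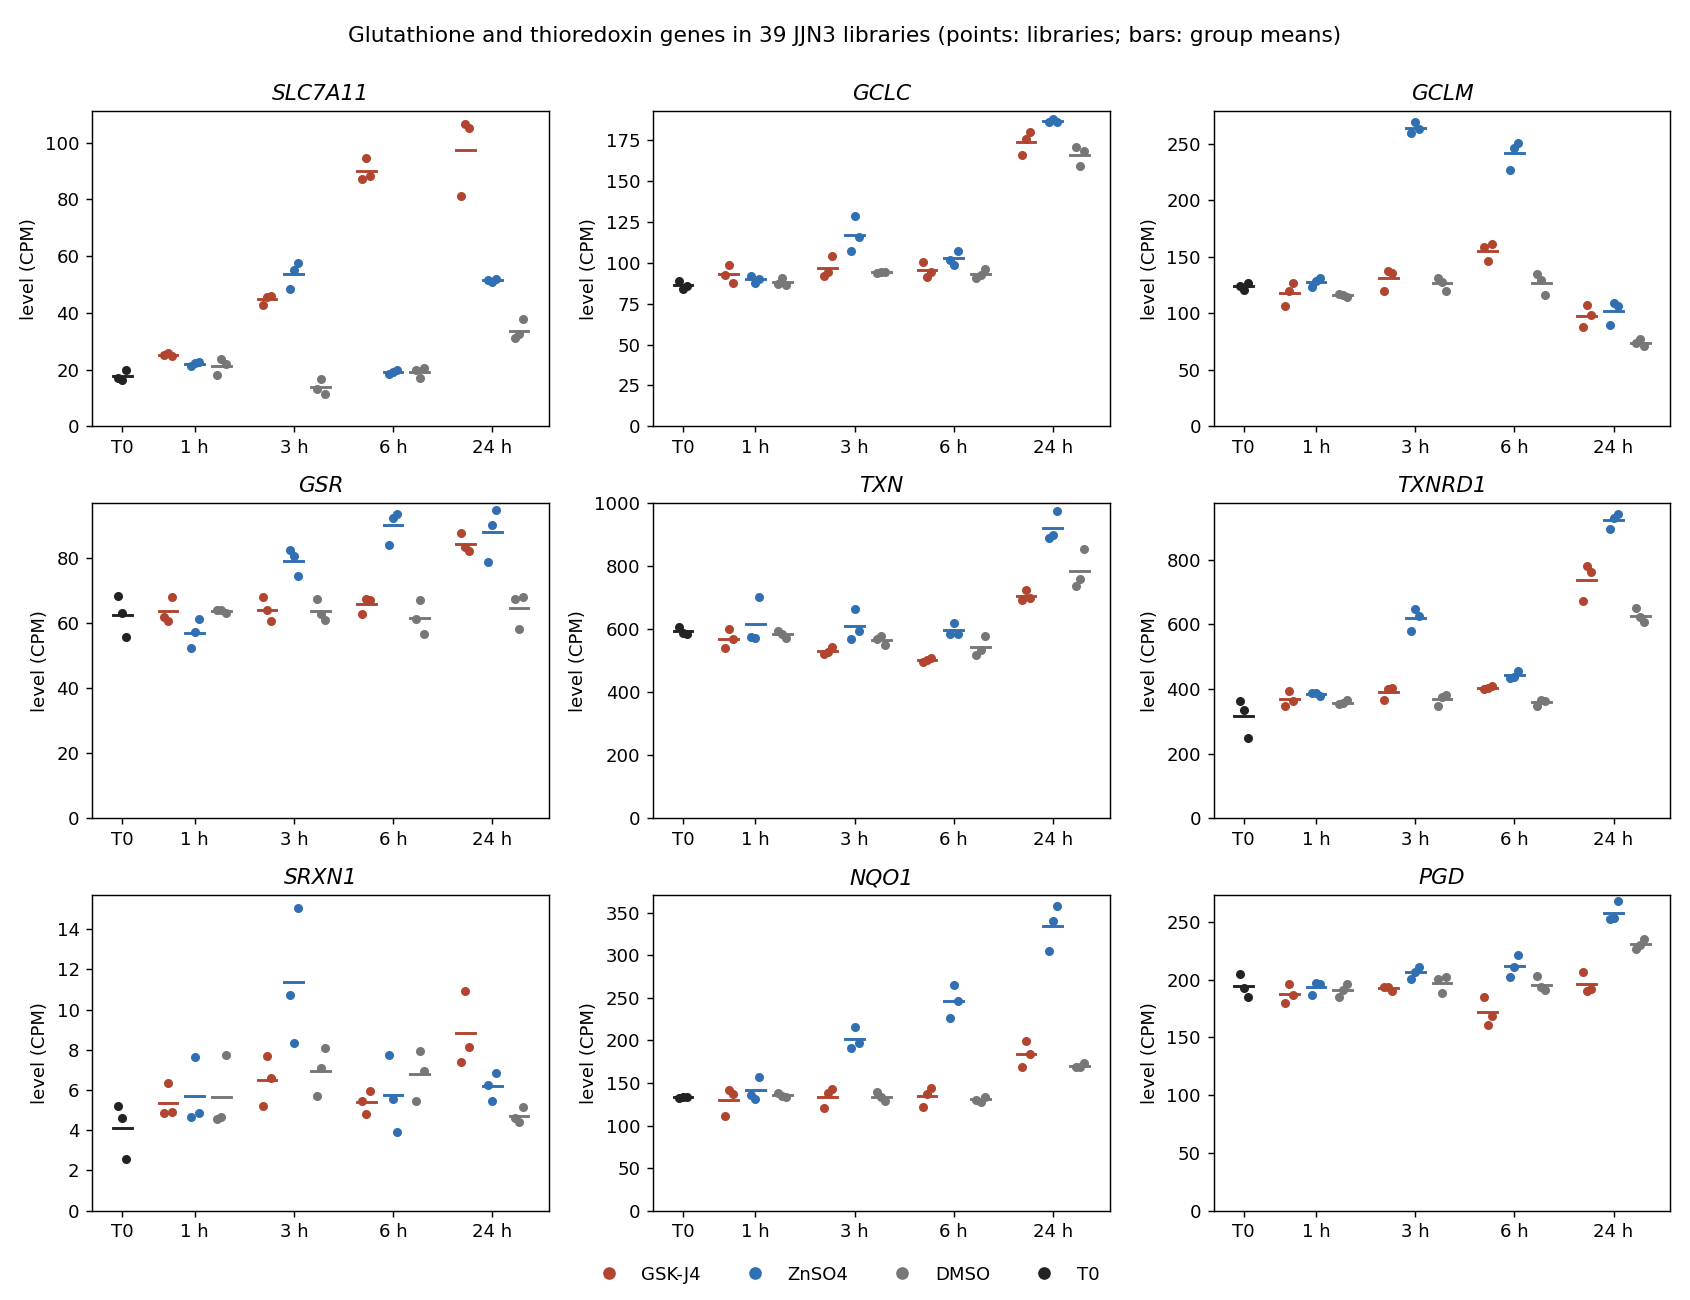
TMM-scaled CPM (vertical axis, linear, from 0) of each of the 9 genes in the 39 libraries, by time (horizontal axis); points are libraries, bars are group means, red is GSK-J4, blue ZnSO4, grey DMSO and black T0. SLC7A11 is highest in GSK-J4 at 6 and 24 h, GCLM in ZnSO4 at 3 and 6 h, and NQO1, TXN, TXNRD1, GCLC and PGD in ZnSO4 at 24 h.

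Promoter sequence could be read for 7 of the 9 genes from RefSeq (GRCh38.p14), in windows of 300 bases from 250 before to 50 after each transcription start, with no entry for SLC7A11 and GSR. The core of the antioxidant response element, TGACNNNGC on either strand, was present in 13.3% of all 35116 such windows. Among the 8 windows of the 7 genes, 4 held it: the GCLM window, the PGD window and both TXNRD1 windows, the upstream one with 2 copies. The core of the metal response element, TGCACNC or TGCGCNC on either strand, was present in 29.6% of all windows and in 5 of these 8, those of GCLC, GCLM, SRXN1, TXN and TXNRD1. The core TGATGNAA, the letters shared by ATF4-type composite sites, was present in 3.62% of all windows and in 0 of the 8. The matches of these 3 motifs did not overlap each other in any of the 8 windows. The 250 bases before the start are given for the genes that held an antioxidant core, with only the upstream window for TXNRD1. NQO1, which held none of the 3 motifs, is given too. The choice was made because GCLM, TXNRD1 and NQO1 were among the members that rose with ZnSO4 at 3 h and PGD was not. GCLC and SRXN1 also rose then, and their windows held no antioxidant core and are not shown. The same holds for the window of TXN, which was not called then. The sequences run 5′ to 3′ on the strand of the gene, with antioxidant cores in capitals. The first lies at chr1:93909431-93909680 (minus strand), the second at chr12:104215529-104215778 (plus strand), the third at chr1:10398814-10399063 (plus strand) and the last at chr16:69726561-69726810 (minus strand).
GCLM: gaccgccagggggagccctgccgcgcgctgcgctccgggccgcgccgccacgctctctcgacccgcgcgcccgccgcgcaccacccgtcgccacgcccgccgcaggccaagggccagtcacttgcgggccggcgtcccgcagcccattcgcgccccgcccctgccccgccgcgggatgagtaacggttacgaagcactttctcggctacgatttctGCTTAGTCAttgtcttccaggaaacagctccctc
TXNRD1: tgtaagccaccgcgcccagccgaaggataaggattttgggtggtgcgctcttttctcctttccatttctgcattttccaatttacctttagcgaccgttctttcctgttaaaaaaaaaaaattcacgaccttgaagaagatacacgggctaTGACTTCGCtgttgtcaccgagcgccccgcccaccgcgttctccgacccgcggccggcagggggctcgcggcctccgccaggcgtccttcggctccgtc
PGD: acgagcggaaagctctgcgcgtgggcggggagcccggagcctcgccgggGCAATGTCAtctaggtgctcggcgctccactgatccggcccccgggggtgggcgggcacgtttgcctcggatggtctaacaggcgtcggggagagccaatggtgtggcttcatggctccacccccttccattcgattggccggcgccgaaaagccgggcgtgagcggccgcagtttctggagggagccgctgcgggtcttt
NQO1: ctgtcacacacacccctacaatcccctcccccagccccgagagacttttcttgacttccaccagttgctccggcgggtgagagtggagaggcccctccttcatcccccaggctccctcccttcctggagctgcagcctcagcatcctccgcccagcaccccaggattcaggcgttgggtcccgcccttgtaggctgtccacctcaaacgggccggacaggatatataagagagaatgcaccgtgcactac
The core in GCLM began 34 bases before the start, that in PGD 201 bases before it and the one in capitals in TXNRD1 99 bases before it. The remaining TXNRD1 core in this window runs across the start itself and is not in capitals. A match is a description of letters and not a bound site. Sequence outside these windows was not read, so a window without a core does not mean that the gene lacks the element.

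Against DMSO of the same time, most of the 9 genes rose with ZnSO4 at 3 and 24 h, and SLC7A11 rose with GSK-J4 from 3 h on. At 3 h of ZnSO4, 7 rose and 0 fell by edgeR's quasi-likelihood test at a Benjamini-Hochberg adjusted p under 0.05, where 10.8% of all genes tested were called and 6.59% were higher. At 6 h of ZnSO4 4 rose, with 9.32% of all genes called and 4.81% higher, and at 24 h 8 rose, with 9.56% called and 3.98% higher. The count of 8 was 5 or 6 when 1 library of either group was left out, and 5 without DMSO replicate 1 or ZnSO4 replicate 3. In ZnSO4 at 24 h all 9 genes had their 3 libraries above the 3 DMSO libraries, as did 11.7% of all genes. At each of these times the summed plasma cell markers were lower in ZnSO4 than in DMSO, and their part in these results was not tested. With GSK-J4, 1 gene rose at 3 h, where 2.38% of all genes were called and 1.45% were higher. At 6 h of GSK-J4 2 rose and 1 fell, where 20.4% of all genes were called, 9.83% higher and 10.5% lower. At 24 h 5 rose and 2 fell, where 32% were called, 15.2% higher and 16.8% lower. The epithelial sum at 6 and 24 h and the plasma cell sum at 24 h were lower in GSK-J4 than in DMSO, and their part in these calls was not tested. The median log2 fold change of the 9 genes in ZnSO4 was 0.59 at 3 h, 0.14 at 6 h and 0.45 at 24 h, and in GSK-J4 it was 0.00 at 3 h, 0.04 at 6 h and 0.23 at 24 h, beside medians over all genes between 0.00 and 0.02. At 1 h none of the 9 was called with either compound by edgeR's quasi-likelihood test or by DESeq2, where 0.104% of all genes were called for GSK-J4 and 0.678% for ZnSO4. At an unadjusted p under 0.05 by the edgeR test, 1 of the 9 passed at 1 h in each, SLC7A11 in GSK-J4 and GCLM in ZnSO4. Of all 14460 genes, 575 passed this looser rule in GSK-J4 and 931 in ZnSO4. Both compounds are set against the same DMSO libraries, so their values stand side by side and are compared only in the direct test given further on.

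**Figure D2:**
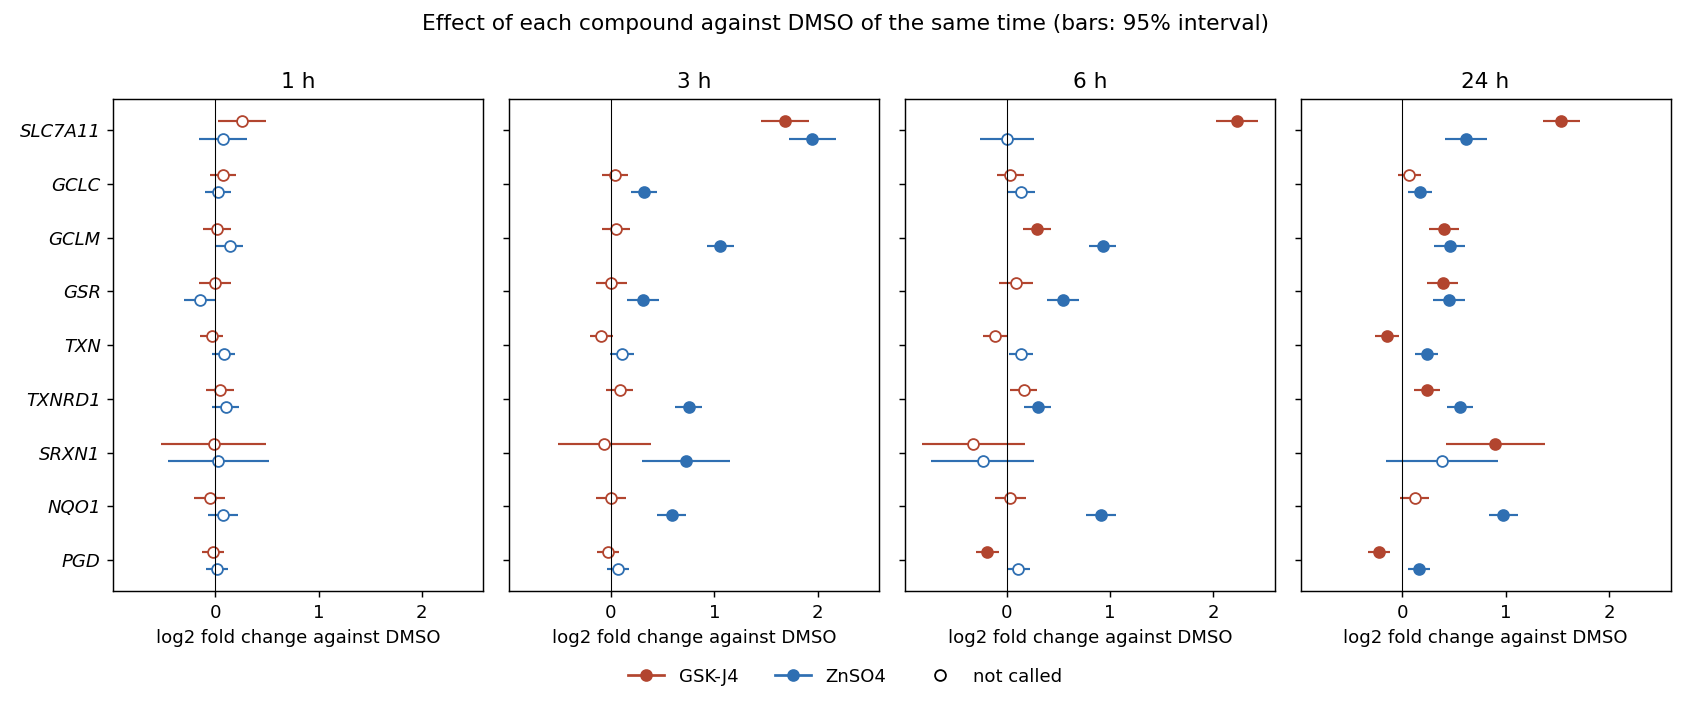
Log2 fold change of each gene in GSK-J4 (red) and ZnSO4 (blue) against DMSO of the same time (horizontal axis) at 1, 3, 6 and 24 h, with 95% intervals; filled points passed adjusted p under 0.05, open points did not. The GSK-J4 points of SLC7A11 lie at 1.69, 2.23 and 1.54 from 3 to 24 h, while most other filled points at 3 and 6 h belong to ZnSO4.

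SLC7A11 (ENSG00000151012, chromosome 4), the cystine carrier, spanned the widest range, its highest group mean being 7.08 times its lowest. In GSK-J4 its libraries held 24.99, 25.97 and 24.89 CPM at 1 h, 42.9, 45.7 and 45.9 CPM at 3 h, 87.2, 94.5 and 88.1 CPM at 6 h, and 81.1, 106 and 105 CPM at 24 h. In ZnSO4 they held 21.2, 22.4 and 22.7 CPM at 1 h, 48.3, 55.2 and 57.5 CPM at 3 h, 18.3, 19.2 and 20 CPM at 6 h, and 51.5, 50.7 and 52.0 CPM at 24 h. In DMSO they held 17.9, 23.7 and 22.1 CPM at 1 h, 13.1, 16.8 and 11.4 CPM at 3 h, 19.9, 17.04 and 20.4 CPM at 6 h, and 30.96, 32.5 and 37.7 CPM at 24 h. DMSO at 3 h had the lowest mean of the 13 groups, 13.8 CPM, against 17.8 CPM in T0. It was not called against T0 by edgeR's quasi-likelihood test (adjusted p = 0.28). Both 3 h effects, and the differences between 3 and 6 h, are set against this low control. The GSK-J4 libraries stood above the DMSO libraries at every time, while the ZnSO4 libraries stood above them at 3 and 24 h and overlapped them at 1 and 6 h. With GSK-J4 the gene rose 3.21-fold at 3 h (log2 fold change 1.69 ± 0.12 SE, adjusted p = 1.1e-18), 4.69-fold at 6 h (2.23 ± 0.10, adjusted p = 9.1e-28) and 2.90-fold at 24 h (1.54 ± 0.09, adjusted p = 7.1e-22) by edgeR's quasi-likelihood test. With ZnSO4 it rose 3.87-fold at 3 h (1.95 ± 0.11, adjusted p = 5.7e-22), had a log2 fold change of 0.00 at 6 h (95% interval -0.26 to 0.26), and rose 1.53-fold at 24 h (0.61 ± 0.10, adjusted p = 1.2e-05). SLC7A11 was thus called at 3, 6 and 24 h in GSK-J4 and at 3 and 24 h, but not at 6 h, in ZnSO4. The ZnSO4 effect was lower at 6 h than at 3 h by 1.95 on the log2 scale (-1.95 ± 0.18, adjusted p = 5.2e-13), where 2.18% of all genes were called and 2 of the 9, this gene and TXNRD1. From 6 to 24 h the ZnSO4 effect differed by 0.61 ± 0.17, which was not called (adjusted p = 0.089) except without DMSO replicate 3 at 24 h (0.70, adjusted p = 0.042). The GSK-J4 effect was higher at 6 h than at 3 h by 0.54 ± 0.16 (adjusted p = 0.042, with 3.67% of all genes called and 1 of the 9). That last call was lost with DESeq2 (adjusted p = 0.051), without the filter on low counts, and when any of 9 libraries was left out, where the difference stayed between 0.37 and 0.60. The GSK-J4 effect at 24 h was lower than at 6 h by 0.69 (-0.69 ± 0.14, adjusted p = 0.00045), where 5.75% of all genes were called and 2 of the 9.

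GCLC (ENSG00000001084, chromosome 6) and GCLM (ENSG00000023909, chromosome 1), the catalytic and modifier subunits of glutamate-cysteine ligase, both rose with ZnSO4 at 3 h. In ZnSO4 the GCLM libraries held 260, 269 and 264 CPM at 3 h, 227, 247 and 251 CPM at 6 h, and 89.8, 109 and 106 CPM at 24 h. In DMSO they held 131, 128 and 120 CPM at 3 h, 135, 129 and 116 CPM at 6 h, and 73.7, 77.2 and 71.3 CPM at 24 h. All ZnSO4 libraries stood above all DMSO libraries at these times, and both groups were lower at 24 h than before. GCLM rose 2.08-fold at 3 h (log2 fold change 1.06 ± 0.06 SE, adjusted p = 2.5e-21), 1.91-fold at 6 h (0.93 ± 0.07, adjusted p = 3.4e-18) and 1.38-fold at 24 h (0.46 ± 0.08, adjusted p = 9.5e-06) with ZnSO4 by edgeR's quasi-likelihood test. The effect at 24 h was lower than at 6 h by 0.47 (-0.47 ± 0.10, adjusted p = 0.007, with 0.408% of all genes called and 1 of the 9), a call lost without ZnSO4 replicate 1 at 24 h (-0.39, adjusted p = 0.084). In GSK-J4 the GCLM libraries held 120, 138 and 135 CPM at 3 h, 159, 146 and 161 CPM at 6 h, and 88.3, 107 and 98.9 CPM at 24 h. They overlapped DMSO at 3 h and stood above it at 6 and 24 h, with log2 fold changes of 0.05 ± 0.07 at 3 h (adjusted p = 0.83), 0.29 ± 0.07 at 6 h (adjusted p = 0.00061) and 0.40 ± 0.07 at 24 h (adjusted p = 1.2e-05).

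GCLC moved little against DMSO. In ZnSO4 its libraries held 107, 129 and 116 CPM at 3 h, against 94.0, 94.3 and 94.3 CPM in DMSO, a rise of 1.25-fold (log2 fold change 0.32 ± 0.06 SE, adjusted p = 9.1e-05). At 24 h they held 186, 188 and 186 CPM in ZnSO4 and 171, 159 and 169 CPM in DMSO, a rise of 1.12-fold (0.17 ± 0.06) at an adjusted p of 0.05 just under the threshold. That call was lost with DESeq2 (adjusted p = 0.056), without the filter on low counts (adjusted p = 0.5) and whenever 1 library of either group was left out. With GSK-J4 the log2 fold changes of GCLC lay between 0.04 and 0.08 at the 4 times and none was called. In DMSO at 24 h the ligase subunits stood on opposite sides of their T0 levels, as given further on.

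GSR (ENSG00000104687, chromosome 8), glutathione reductase, held 82.5, 80.5 and 74.6 CPM at 3 h, 84.1, 92.2 and 93.6 CPM at 6 h and 78.8, 90.0 and 94.7 CPM at 24 h in ZnSO4. In DMSO it held 67.3, 62.8 and 60.8 CPM at 3 h, 61.3, 67.1 and 56.6 CPM at 6 h and 67.3, 58.1 and 68.1 CPM at 24 h. No ZnSO4 library overlapped a DMSO library at these 3 times. GSR rose 1.24-fold at 3 h (log2 fold change 0.31 ± 0.08 SE, adjusted p = 0.003), 1.46-fold at 6 h (0.55 ± 0.08, adjusted p = 3.6e-07) and 1.37-fold at 24 h (0.45 ± 0.08, adjusted p = 3e-05) with ZnSO4. In GSK-J4 it held 87.7, 83.3 and 82.1 CPM at 24 h, all above DMSO (0.39 ± 0.08, adjusted p = 3.9e-05), and its log2 fold changes of 0.00 at 3 h and 0.09 at 6 h were not called.

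TXN (ENSG00000136810, chromosome 9), thioredoxin, moved in opposite directions with the compounds at 24 h. There it held 694, 725 and 698 CPM in GSK-J4, 890, 901 and 977 CPM in ZnSO4, and 739, 761 and 854 CPM in DMSO. The 3 groups did not overlap, with GSK-J4 below and ZnSO4 above DMSO. TXN fell to 0.90 of the DMSO level with GSK-J4 (log2 fold change -0.15 ± 0.06 SE, adjusted p = 0.033) and rose 1.18-fold with ZnSO4 (0.23 ± 0.06, adjusted p = 0.0032). The fall was lost when libraries were scaled by their totals alone (-0.06, adjusted p = 0.42), and without DMSO replicate 3 or GSK-J4 replicate 1 or 3. The rise was lost without DMSO replicate 1 or ZnSO4 replicate 3 (adjusted p = 0.054 and 0.051). At 3 and 6 h the log2 fold changes of TXN were -0.09 and -0.11 with GSK-J4 and 0.11 and 0.14 with ZnSO4, none of them called.

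TXNRD1 (ENSG00000198431, chromosome 12), thioredoxin reductase, held 581, 649 and 626 CPM at 3 h, 435, 438 and 455 CPM at 6 h and 896, 928 and 940 CPM at 24 h in ZnSO4. In DMSO it held 347, 376 and 382 CPM at 3 h, 349, 367 and 364 CPM at 6 h and 651, 624 and 607 CPM at 24 h. The groups did not overlap, and the distance between them was smallest at 6 h. TXNRD1 rose 1.68-fold at 3 h (log2 fold change 0.75 ± 0.07 SE, adjusted p = 1.3e-14), 1.23-fold at 6 h (0.30 ± 0.07, adjusted p = 0.00099) and 1.47-fold at 24 h (0.56 ± 0.06, adjusted p = 1e-09) with ZnSO4. The effect at 6 h was lower than at 3 h by 0.45 (-0.45 ± 0.09, adjusted p = 0.0011), and the effect at 24 h did not differ from that at 6 h past the threshold (0.26 ± 0.09, adjusted p = 0.31). In GSK-J4 it held 674, 780 and 762 CPM at 24 h, all above DMSO (0.23 ± 0.06, adjusted p = 0.0024). At 6 h the GSK-J4 libraries, with 401, 402 and 408 CPM, also stood above DMSO, but the log2 fold change of 0.17 ± 0.07 was not called (adjusted p = 0.063). It was called in a fit to the groups compared alone (adjusted p = 0.0033) and with library totals alone (adjusted p = 0.015).

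SRXN1 (ENSG00000271303, chromosome 20), sulfiredoxin, was counted in few reads and its libraries spread widely. It held 10.7, 8.34 and 15.1 CPM in ZnSO4 at 3 h, against 5.68, 7.09 and 8.08 CPM in DMSO, so the groups came close without overlapping. The rise was 1.66-fold (log2 fold change 0.73 ± 0.21 SE, adjusted p = 0.015), and it was lost with DESeq2 (adjusted p = 0.072), without DMSO replicate 1 (0.59, adjusted p = 0.14) and without ZnSO4 replicate 3 (0.45, adjusted p = 0.31). In GSK-J4 at 24 h it held 7.37, 10.9 and 8.12 CPM, against 4.62, 4.39 and 5.16 CPM in DMSO, with no overlap. That rise was 1.87-fold (0.90 ± 0.24, adjusted p = 0.0022). The GSK-J4 effect was higher at 24 h than at 6 h by 1.22 ± 0.35 (adjusted p = 0.021), a call lost when any of 4 libraries was left out, where the difference lay between 1.04 and 1.16. At 6 h its log2 fold changes were -0.32 ± 0.25 with GSK-J4 and -0.23 ± 0.25 with ZnSO4, and neither was called.

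NQO1 (ENSG00000181019, chromosome 16), the quinone reductase, rose with ZnSO4 at 3, 6 and 24 h and was never called with GSK-J4. In ZnSO4 it held 192, 215 and 198 CPM at 3 h, 227, 266 and 246 CPM at 6 h and 305, 340 and 358 CPM at 24 h. In GSK-J4 it held 120, 138 and 143 CPM at 3 h, 122, 137 and 145 CPM at 6 h and 169, 200 and 184 CPM at 24 h. In DMSO it held 139, 134 and 129 CPM at 3 h, 130, 128 and 134 CPM at 6 h and 168, 168 and 174 CPM at 24 h. The ZnSO4 libraries stood above all GSK-J4 and DMSO libraries of the same time, and the GSK-J4 libraries overlapped DMSO. NQO1 rose 1.5-fold at 3 h (log2 fold change 0.59 ± 0.07 SE, adjusted p = 2.5e-09), 1.88-fold at 6 h (0.91 ± 0.07, adjusted p = 8.4e-16) and 1.97-fold at 24 h (0.98 ± 0.07, adjusted p = 7.1e-18) with ZnSO4. With GSK-J4 its log2 fold changes were 0.00 at 3 h, 0.04 at 6 h and 0.12 at 24 h, with a 95% interval at 24 h of -0.03 to 0.26, and only the scaling by library totals called the last (0.21, adjusted p = 0.016). The gene's window shown above held no antioxidant core, but sequence further from the start was not read.

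PGD (ENSG00000142657, chromosome 1), 6-phosphogluconate dehydrogenase, fell with GSK-J4. Its libraries held 185, 161 and 169 CPM at 6 h in GSK-J4, against 203, 193 and 191 CPM in DMSO, and 207, 190 and 192 CPM at 24 h in GSK-J4, against 226, 230 and 235 CPM in DMSO. The groups did not overlap at either time. PGD fell to 0.878 of the DMSO level at 6 h (log2 fold change -0.19 ± 0.06 SE, adjusted p = 0.0084) and to 0.852 at 24 h (-0.23 ± 0.05, adjusted p = 0.00045). The call at 6 h was lost without DMSO replicate 1 (adjusted p = 0.059) or GSK-J4 replicate 2 (adjusted p = 0.1). In ZnSO4 at 24 h it held 253, 253 and 268 CPM, above DMSO (0.16 ± 0.05, adjusted p = 0.039), a call lost without the filter on low counts (adjusted p = 0.48) and whenever 1 library of either group was left out.

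Set directly against ZnSO4, GSK-J4 left most of the 9 genes lower at 3 h, and SLC7A11 far higher at 6 and 24 h. The summed plasma cell markers were higher in GSK-J4 at all these times. They were 2280 to 2400 CPM in GSK-J4 and 1810 to 1940 CPM in ZnSO4 at 3 h. At 6 h they were 2320 to 2420 and 1810 to 1930 CPM, and at 24 h 2320 to 2440 and 1950 to 2220 CPM. The summed epithelial markers were lower in GSK-J4 at 6 h (40.3 to 41.8 CPM, against 43.8 to 49 CPM in ZnSO4) and overlapped at 3 and 24 h. The part of these markers in the differences was not tested. At 3 h all 9 had their 3 GSK-J4 libraries below the 3 ZnSO4 libraries, as did 15% of all genes, and 8 were called lower where 10.1% of all genes were called and 6.12% were lower. The largest of these log2 fold changes was that of GCLM, -1.01 ± 0.06 SE (adjusted p = 2.8e-21), followed by SRXN1 at -0.79 ± 0.19 (adjusted p = 0.0029), TXNRD1 at -0.67 ± 0.06 (adjusted p = 5.1e-13) and NQO1 at -0.59 ± 0.07 (adjusted p = 6.1e-10). GSR (-0.30 ± 0.07) and GCLC (-0.28 ± 0.06) were lower too. SLC7A11 was also lower in GSK-J4 at 3 h (-0.27 ± 0.09, adjusted p = 0.035), a call lost with DESeq2 (adjusted p = 0.11), with library totals alone (adjusted p = 0.12), without the filter on low counts (adjusted p = 0.09) and when any of 5 libraries was left out. SRXN1 lost its call without ZnSO4 replicate 3 (-0.51, adjusted p = 0.16), and TXN (-0.20 ± 0.06, adjusted p = 0.012) lost its own with library totals alone (adjusted p = 0.071) and without ZnSO4 replicate 2 or GSK-J4 replicate 1. At 6 h 6 were called, 1 higher and 5 lower, where 18.4% of all genes were called, 8.53% higher and 9.88% lower. SLC7A11 was 4.68-fold higher in GSK-J4 (2.23 ± 0.10, adjusted p = 5.3e-27), while NQO1 (-0.88 ± 0.07), GCLM (-0.64 ± 0.06), GSR (-0.46 ± 0.08), PGD (-0.30 ± 0.06) and TXN (-0.25 ± 0.06) were lower, with adjusted p of at most 0.00092. At 24 h 5 were called, 1 higher and 4 lower, where 24.5% of all genes were called, 12% higher and 12.5% lower. SLC7A11 was 1.90-fold higher in GSK-J4 (0.92 ± 0.09, adjusted p = 1.6e-12), and NQO1 (-0.86 ± 0.07), PGD (-0.39 ± 0.05), TXN (-0.39 ± 0.06) and TXNRD1 (-0.32 ± 0.06) were lower, with adjusted p of at most 7e-05. GCLC, GCLM and GSR were not called at 24 h, with 95% intervals of -0.22 to 0.01, -0.21 to 0.09 and -0.22 to 0.10. SRXN1 had its GSK-J4 libraries above its ZnSO4 libraries at 24 h but was not called either (0.52 ± 0.25, adjusted p = 0.13). At 1 h 0 of the 9 were called by edgeR or by DESeq2, where 0.664% of all genes were called. At an unadjusted p under 0.05 by the edgeR test 1 of the 9, TXN, passed, as did 1338 of all 14460 genes.

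**Figure D3:**
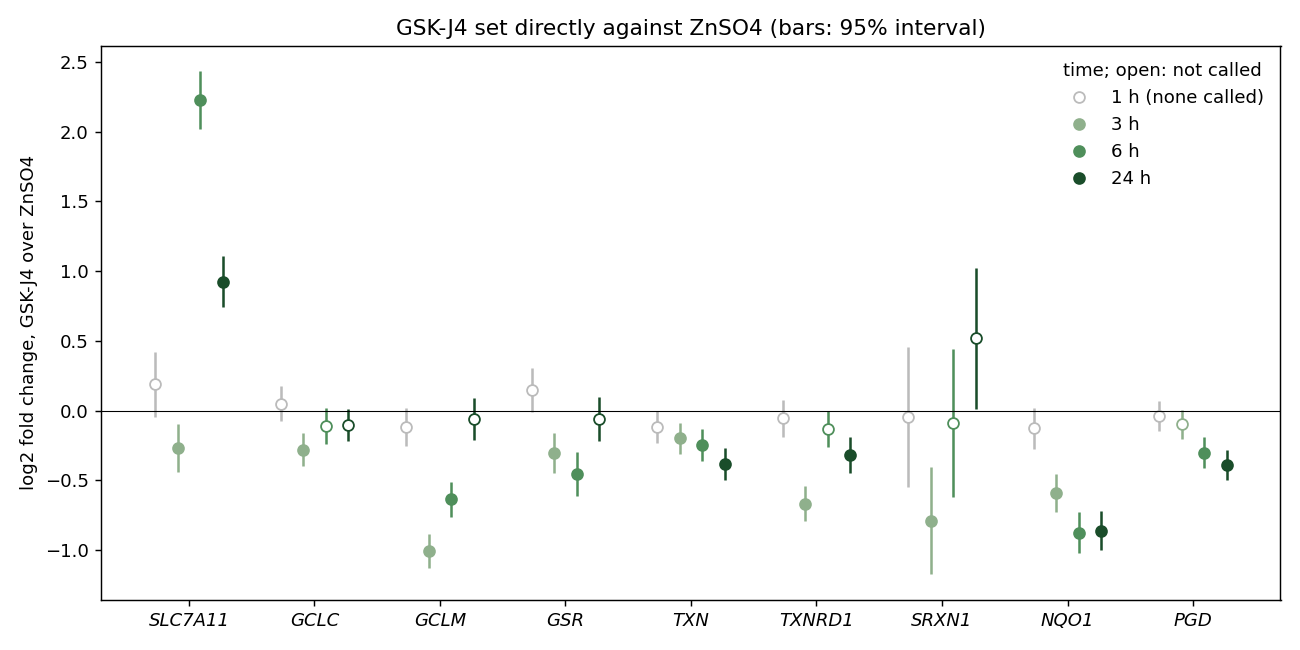
Log2 fold change of GSK-J4 over ZnSO4 (vertical axis) for the 9 genes at 1, 3, 6 and 24 h (light to dark), with 95% intervals; filled points passed adjusted p under 0.05. SLC7A11 turns from -0.27 at 3 h to 2.23 at 6 h and 0.92 at 24 h, while NQO1 stays between -0.59 and -0.88 over those times.

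DMSO cultures themselves moved by 24 h. Against T0, 7 of the 9 genes were called in DMSO at 24 h, 6 higher and 1 lower, where 63.2% of all genes were called, 30.5% higher and 32.7% lower. TXNRD1 held 651, 624 and 607 CPM in DMSO at 24 h, against 363, 334 and 249 CPM in T0 (log2 fold change 0.98 ± 0.07 SE, adjusted p = 5.7e-21). GCLC held 171, 159 and 169 CPM in DMSO at 24 h, against 88.7, 84.4 and 86.0 CPM in T0 (0.94 ± 0.06, adjusted p = 1.2e-21), and SLC7A11 also rose (0.93 ± 0.11, adjusted p = 1e-10). GCLM went the other way, with 73.7, 77.2 and 71.3 CPM in DMSO at 24 h, against 124, 121 and 127 CPM in T0 (-0.74 ± 0.07, adjusted p = 2.3e-14), so that the ligase subunits parted in the control cultures. TXN (0.40 ± 0.06, adjusted p = 7.8e-09), NQO1 (0.35 ± 0.07, adjusted p = 2.1e-05) and PGD (0.24 ± 0.05, adjusted p = 5.9e-05) rose. Scaling by library totals alone moved the median of all genes in this comparison to -0.24, ended the calls of NQO1 (0.13, adjusted p = 0.11) and PGD (0.02, adjusted p = 0.77) and turned GSR, at 0.04 ± 0.08 and not called here, to -0.19 (adjusted p = 0.03). SRXN1 was not called (0.14 ± 0.27). The mRNAs of NRF2 and KEAP1, looked at after the data were seen, both fell in DMSO by 24 h, NFE2L2 to 31.6 ± 2.43 CPM, against 87.8 ± 6.69 CPM in T0 (-1.48 ± 0.08, adjusted p = 9.7e-26), and KEAP1 to 97.3 ± 1.62 CPM, against 155 ± 8.04 CPM in T0 (-0.67 ± 0.06, adjusted p = 1.1e-15). The summed epithelial markers lay between 69.8 and 77.0 CPM in DMSO at 24 h and between 45.6 and 52.7 CPM in T0, and their part in these changes was not tested. In bulk RNA a change in the make-up of the culture and a change in RNA per cell cannot be told apart. At 1, 3 and 6 h of DMSO 0 of the 9 were called against T0 by edgeR or by DESeq2, where 0.0346%, 0.0968% and 0.0138% of all genes were called. At an unadjusted p under 0.05 by the edgeR test, 2, 3 and 3 of the 9 passed, as did 1112, 1872 and 1778 of all 14460 genes. TXNRD1 was called at all 3 of these times without T0 replicate 1 (0.28, 0.33 and 0.29), and had values of 0.04, 0.08 and 0.05 without T0 replicate 3, its lowest T0 library.

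Ranked by group mean, 5 genes were highest in ZnSO4 at 24 h: TXNRD1 (921 ± 22.8 CPM, SD, n = 3), TXN (923 ± 47.2), NQO1 (335 ± 27.2), PGD (258 ± 8.5) and GCLC (187 ± 0.921). GCLM was highest in ZnSO4 at 3 h (264 ± 4.69 CPM) and lowest in DMSO at 24 h (74.1 ± 2.96 CPM), a ratio of 3.57. GSR was highest in ZnSO4 at 6 h (90.0 ± 5.15 CPM), SRXN1 in ZnSO4 at 3 h (11.4 ± 3.41 CPM) and SLC7A11 in GSK-J4 at 24 h (97.5 ± 14.3 CPM). The ratio of highest to lowest group was 2.92 for TXNRD1, 2.76 for SRXN1, 2.57 for NQO1, 2.16 for GCLC, 1.84 for TXN, 1.58 for GSR and 1.5 for PGD. Of the 12 neighbouring pairs in each order, libraries overlapped in 12 for SRXN1, 11 for GSR, 10 each for GCLC and PGD, 9 each for TXN and NQO1, 8 for TXNRD1 and 7 each for SLC7A11 and GCLM. For SLC7A11 the clear steps were from GSK-J4 at 6 h to ZnSO4 at 3 h, from ZnSO4 at 24 h to GSK-J4 at 3 h, from there to DMSO at 24 h, to GSK-J4 at 1 h, and on to ZnSO4 at 1 h. For GCLM the steps fell below ZnSO4 at 3 h, ZnSO4 at 6 h, GSK-J4 at 6 h, DMSO at 1 h and GSK-J4 at 24 h. For NQO1 they fell below ZnSO4 at 24 h, ZnSO4 at 6 h and DMSO at 24 h.

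Across the 13 group means of log2 CPM the 9 genes did not form one profile. GCLC and TXNRD1 were most alike (Pearson r = 0.957), followed by TXN and PGD (0.891), GCLC and TXN (0.879) and GSR and NQO1 (0.879). GCLM ran against GCLC (-0.396) and TXN (-0.462), and SLC7A11 was near 0 with GCLM (-0.032) and PGD (0.01). The groups share their culture times, so a common difference between the 24 h and earlier groups raises such values, and they are descriptions without a test. Among 9654 genes with an average log2 CPM of at least 3, the pattern of SLC7A11 was closest to that of TNFRSF10B, a death receptor (0.949), and SLC3A2, its heavy chain partner in the cystine carrier (0.932). NQO1 was closest to EPHX1, epoxide hydrolase (0.974), and FGFR1 (0.97), and GSR to SUN1 (0.961) and FTH1P12, a ferritin pseudogene (0.954). Counts for FTH1P12 may be shared with FTH1, the ferritin heavy chain gene, which was not tested. GCLM was closest to SERPINH1, a collagen chaperone (0.946), and ANKRD42 (0.945). The nearest genes were ZEB2 (0.975) and SESTD1 (0.973) for TXNRD1, FHIP2A (0.988) and TBC1D12 (0.988) for GCLC, PGRMC1 (0.986) and RPL39 (0.985) for TXN, and HMGA1 (0.976) and MARCKSL1 (0.974) for PGD. SRXN1 had no close match, its nearest being WDR20 (0.857) and RAB12 (0.811).

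The wider redox network was read through 8 further lists of 97 genes, of which 95 were found and 85 tested. Shares of all genes called are set beside each count, and a list share near them shows nothing about the list. Of 10 genes for NRF2 and its regulators, 5 rose and 2 fell with GSK-J4 at 6 h (20.4% of all genes called) and 4 rose with ZnSO4 at 3 h (10.8%). With GSK-J4 at 6 h, NFE2L1, an NRF2-related factor of proteasome genes, rose by 0.99 ± 0.06 on the log2 scale and BACH1, a repressor at NRF2 sites, by 0.60 ± 0.07, while MAFK, a small MAF partner, fell (-0.68 ± 0.13) and so did CUL3, the ligase scaffold of KEAP1 (-0.21 ± 0.06). With ZnSO4 at 3 h SQSTM1, a KEAP1-binding autophagy receptor (0.63 ± 0.05), and MAFG, another small MAF (0.67 ± 0.06), rose. The mRNA of NRF2 itself, NFE2L2, had a log2 fold change of 0.04 ± 0.07 with ZnSO4 at 3 h (adjusted p = 0.85). It rose by 0.44 ± 0.07 with GSK-J4 at 6 h (adjusted p = 3.7e-07). These NFE2L2 values are from different times and do not compare the compounds. KEAP1 was not called against DMSO with either compound at any time.

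Of 6 tested genes of cystine and cysteine supply, 5 rose with GSK-J4 at 6 h (median log2 fold change 0.68, against 0.01 for all genes) and 5 at 24 h, where 9.83% and 15.2% of all genes were higher. With ZnSO4 3 rose at 3 h, 2 at 6 h and 1 at 24 h, where 6.59%, 4.81% and 3.98% of all genes were higher. CTH, which makes cysteine from cystathionine, held 87.0 ± 4.62 CPM in GSK-J4 at 6 h and 20.4 ± 2.81 CPM in DMSO (2.08 ± 0.10, adjusted p = 1.4e-25). SLC3A2 held 523 ± 0.542 CPM in GSK-J4 at 6 h and 285 ± 5.82 CPM in DMSO (0.88 ± 0.05, adjusted p = 5.6e-23). With ZnSO4 at 3 h the log2 fold changes were 1.22 ± 0.12 for CTH and 0.47 ± 0.05 for SLC3A2. The light and heavy chains of the cystine carrier, SLC7A11 and SLC3A2, thus rose with GSK-J4 at 6 h and with ZnSO4 at 3 h. Of 8 tested genes of glutathione synthesis, turnover and export, 1 rose and 3 fell with GSK-J4 at 24 h, where 15.2% of all genes were higher and 16.8% lower. The one that rose was CHAC1, which degrades glutathione (10.7 ± 1.92 CPM in GSK-J4 and 1.81 ± 0.0899 CPM in DMSO, 2.55 ± 0.43, adjusted p = 2.8e-06), and SLC25A39, the mitochondrial glutathione carrier (-0.33 ± 0.05), and GGCT, a cyclotransferase of glutathione breakdown (-0.27 ± 0.06), were among those that fell. CHAC1 was far more abundant earlier, with 246 ± 7.48 CPM in GSK-J4 and 49.3 ± 6.99 CPM in DMSO at 3 h (2.30 ± 0.14, adjusted p = 6.7e-21) and 370 ± 21.6 CPM in GSK-J4 and 40.4 ± 18.8 CPM in DMSO at 6 h (3.19 ± 0.14, adjusted p = 4.6e-28). With ZnSO4 at 3 h CHAC1 (0.64 ± 0.15) and the exporter ABCC1 (0.21 ± 0.07) rose, 2 of the 8, where 6.59% of all genes were higher, and at 6 h CHAC1 fell (-0.97 ± 0.20, adjusted p = 0.0005).

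Among 14 tested thioredoxin and peroxiredoxin genes, 2 rose and 5 fell with GSK-J4 at 6 h (9.83% of all genes higher, 10.5% lower), and 2 rose with ZnSO4 at 3 h (6.59% higher). SESN2, a stress-induced sestrin, held 285 ± 15.7 CPM in GSK-J4 at 6 h and 44.1 ± 9.9 CPM in DMSO (2.69 ± 0.09, adjusted p = 3.1e-35), and its relative SESN1 rose by 0.48 ± 0.08. PRDX1, an abundant peroxiredoxin that thioredoxin reduces, fell with GSK-J4 at 6 h (-0.34 ± 0.05), as did TXNDC17 (-0.32 ± 0.08), and PRDX1 rose with ZnSO4 at 3 h (0.21 ± 0.05). SESN2 rose by 1.46 ± 0.09 with ZnSO4 at 3 h. Of 17 tested glutathione peroxidases, transferases and glutaredoxins, 1 rose and 4 fell with GSK-J4 at 24 h, and 2 rose with ZnSO4 at 6 h, shares near those of all genes (32% called with GSK-J4, 9.32% with ZnSO4). GPX1, the main cytosolic glutathione peroxidase (-0.34 ± 0.07), and GSTO1 (-0.40 ± 0.08) fell and HAGH, glyoxalase II, rose (0.54 ± 0.17), while the transferases GSTM3 (0.62 ± 0.16) and GSTM4 (0.43 ± 0.11), which are close in sequence, rose with ZnSO4. SOD1 and SOD2, the superoxide dismutases, fell with GSK-J4 at 6 h (-0.32 ± 0.06 and -0.32 ± 0.05), 2 of a list of 3, where 10.5% of all genes were lower.

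Of 14 genes of NADPH production and the pentose phosphate pathway other than PGD, among them TKT, TALDO1, RPE, RPIA and PGLS, which make no NADPH themselves, 3 rose and 6 fell with GSK-J4 at 24 h (32% of all genes called). With ZnSO4 at 6 h 1 rose and 4 fell (9.32% called). With GSK-J4 at 24 h the mitochondrial folate enzyme MTHFD2 (0.75 ± 0.05) and the malic enzyme ME1 (0.59 ± 0.07) rose, and TKT, the transketolase of the pentose phosphate pathway (-0.48 ± 0.05), and MTHFD1 (-0.25 ± 0.05) fell. ME1 also rose with ZnSO4 at 6 h (0.59 ± 0.07), where MTHFD1 (-0.29 ± 0.06) and ME2 (-0.21 ± 0.06) fell. Of 13 tested NRF2 targets outside the 9 genes, 8 rose with ZnSO4 at 3 h, 9 at 6 h and 6 at 24 h, where 6.59%, 4.81% and 3.98% of all genes were higher. With GSK-J4, 2 rose at 3 h, where 1.45% of all genes were higher. At 6 h of GSK-J4 2 rose and 1 fell, a share near the 20.4% of all genes called. At 24 h of GSK-J4 7 rose and 3 fell, where 32% were called, 15.2% higher and 16.8% lower. HMOX1, haem oxygenase, held 1168 ± 213 CPM in ZnSO4 at 6 h and 78.0 ± 3.16 CPM in DMSO (3.90 ± 0.12, adjusted p = 9.6e-37), and FTH1, the ferritin heavy chain, 849 ± 24.8 CPM in ZnSO4 and 255 ± 17.3 CPM in DMSO (1.73 ± 0.07). With GSK-J4 at 24 h HMOX1 rose by 1.05 ± 0.12 and FTH1 by 0.92 ± 0.07, while AKR1B1 (-0.24 ± 0.08) and the ferritin light chain FTL (-0.13 ± 0.05) fell. These lists, like the 9 genes, were drawn up with earlier results of these data known, and their counts describe these libraries.

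**Figure D4:**
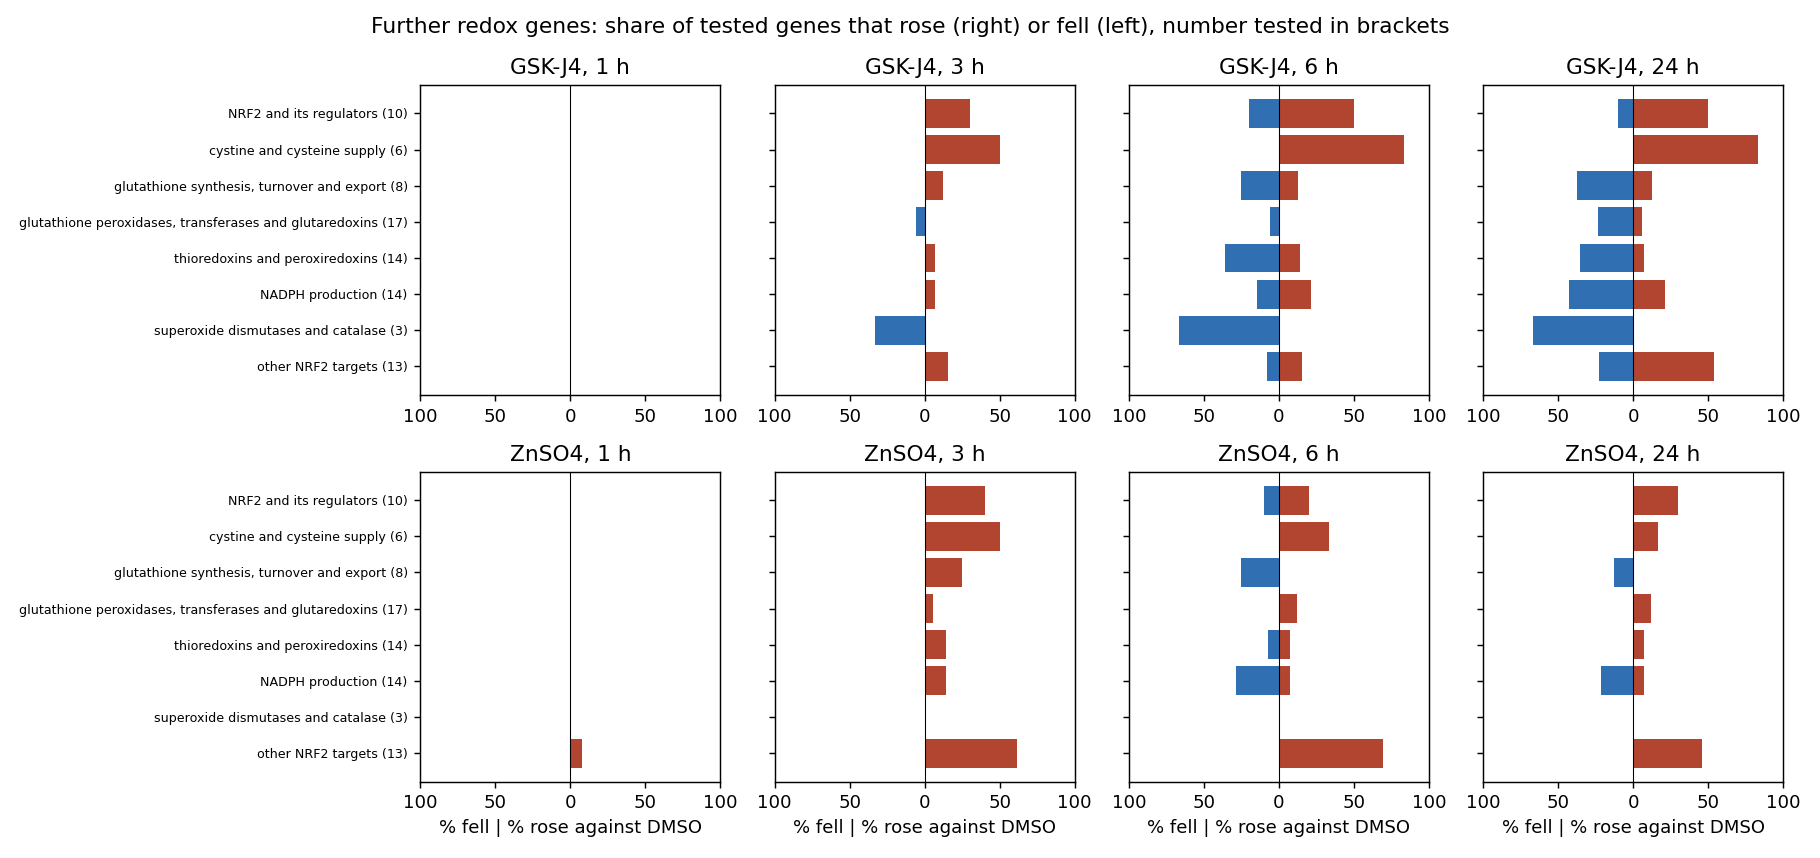
Percent of tested genes in each of 8 further redox lists that rose (bars to the right) or fell (bars to the left) against DMSO of the same time, for GSK-J4 (top row) and ZnSO4 (bottom row) at 1, 3, 6 and 24 h, with the number tested in brackets. Cystine and cysteine supply has 5 of 6 genes up in GSK-J4 at 6 and 24 h, and the other NRF2 targets have 9 of 13 up in ZnSO4 at 6 h.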

How the data were processed

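Raw read counts per Ensembl gene were deposited by the authors as 1 table of 39 columns, 3 per group. Reads were aligned with HISAT2 2.1.0 to hg19, per the submitters' processing notes, from NEBNext Ultra libraries of Trizol-extracted RNA, per the labels' protocols. The counting tool, annotation and strand setting are not stated in these sources. Of 57773 IDs, 51996 were named by a table of current symbols and 342 by GENCODE 29 alone, and 5435 had no symbol. GENCODE 29, on another build than hg19, served for names and exon lengths only, and RefSeq GRCh38.p14 for promoter sequence.

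Counts were fitted over all 39 libraries with 1 coefficient per group in edgeR 4.0.16 (R 4.3.3; quasi-likelihood test, TMM scaling, filterByExpr with a minimum count of 10), which left 14460 genes and 26 residual degrees of freedom. P-values were adjusted over all genes within a comparison by the Benjamini-Hochberg method and called at 0.05. CPM values are TMM-scaled. The common dispersion was 0.0023, a biological coefficient of variation of 4.8%. Errors of fold changes are standard errors from the fit, and intervals cover the spread between libraries. The scripts were tested on simulated data.

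Alternatives were DESeq2 1.42.0, size factors by relative log expression, library totals alone, no filter on low counts, a fit to the groups compared alone, and each library left out in turn. Replicates were numbered in accession order, as names only. The 9 genes, the further lists and the tests were chosen with earlier results of these data known. All 9 genes are described. From each further list up to 2 genes were named per direction, those called with the smallest p in the comparison of each compound with DMSO that called most of the list and with an average log2 CPM of at least 1. The 2 genes with the highest Pearson r over the 13 group means were named for each of the 9.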

Additional observations from a re-analysis of the deposited data

Results flagged for a closer look

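For 6 results the effect of a compound on a gene against DMSO differed between 2 times by edgeR's quasi-likelihood test of the difference itself. For the GSK-J4 effect at 6 h minus 3 h, 3.67% of all genes were called, and 5.75% for 24 h minus 6 h. For the ZnSO4 effect these shares were 2.18% and 0.408%. For SLC7A11 the GSK-J4 effect at 6 h minus that at 3 h was 0.545 on the log2 scale (adjusted p = 0.042), and the effect at 24 h minus that at 6 h was -0.694 (adjusted p = 0.00045). The ZnSO4 effect on SLC7A11 at 6 h minus that at 3 h was -1.947 (adjusted p = 5.2e-13), the widest swing among the 9 genes. For TXNRD1 the ZnSO4 effect at 6 h minus that at 3 h was -0.452 (adjusted p = 0.0011). For GCLM the ZnSO4 effect at 24 h minus that at 6 h was -0.47 (adjusted p = 0.007). For SRXN1 the GSK-J4 effect at 24 h minus that at 6 h was 1.223 (adjusted p = 0.021), from a gene with 13 to 122 counts in a library. The SLC7A11 call of 0.545, the GCLM call and the SRXN1 call were each lost in some alternative fits, as given above. Both SLC7A11 differences between 3 and 6 h rest on the low DMSO level at 3 h.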

How the results depend on the processing

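Size factors by relative log expression left all 180 gene results on the same side of the threshold. DESeq2 and the fit without a filter on low counts each ended 4 calls, the fit to the groups compared alone added 4, and library totals alone ended 5, added 5 and reversed 1. Leaving out 1 library ended 43 calls and added 7. The reversed result was GSR in DMSO at 24 h against T0, -0.19 with library totals (adjusted p = 0.03) and 0.04 with TMM scaling. In that comparison library totals moved the median of all genes by -0.24, and by 0.11 in GSK-J4 at 24 h against DMSO.

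The number of the 9 members called with GSK-J4 against DMSO at 3 h was 2 with only the groups compared, where TXN was added (-0.09, adjusted p = 0.033), and 1 otherwise. For the GSK-J4 effect at 6 h minus 3 h it was 0 without the filter on low counts, 0 with DESeq2 and 2 with only the groups compared, against 1. With a library left out the count ran from 5 to 6 for ZnSO4 at 24 h, against 8, with 5 without DMSO replicate 1 or ZnSO4 replicate 3. It ran from 0 to 1 for DMSO at 1, 3 and 6 h against T0, where TXNRD1 was called without T0 replicate 1. It ran from 0 to 1 for the GSK-J4 effect at 6 h minus 3 h, from 1 to 2 for that at 24 h minus 6 h, from 2 to 4 for the ZnSO4 effect at 6 h minus 3 h and from 0 to 2 for that at 24 h minus 6 h. Other calls that ended stand beside their values above. Library totals added TXNRD1 at 6 h and GCLC (0.16, adjusted p = 0.022) and NQO1 at 24 h of GSK-J4. The cause of these shifts was not tested.

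Over all genes, the number called for GSK-J4 against DMSO at 3 h was 1072 with only the groups compared, against 344, and for the GSK-J4 effect at 6 h minus 3 h 920 against 530. For DMSO at 1, 3 and 6 h against T0 it was 5, 14 and 2, with DESeq2 13, 75 and 48, and with no filter 31, 78 and 60. Among called genes the percent higher was 61.3 with TMM and 44.5 with library totals for ZnSO4 at 3 h, 48.3 and 61.6 for GSK-J4 at 6 h, 47.6 and 68.1 for GSK-J4 at 24 h, and 48.2 and 29.8 for DMSO at 24 h against T0. For GSK-J4 against ZnSO4 it was 39.5 and 66.6 at 3 h, 46.3 and 56.4 at 6 h and 48.9 and 66.6 at 24 h. No paired analysis was possible because the labels give no replicate number that groups share. Low counts limit SRXN1 most, and how many of its reads were left uncounted over AL121758.1 is not known.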
